A study of Mus musculus with 12 samples.

Results

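The genes described here are the 7 genes of the mouse MHC class II pathway named H2-Aa, H2-Ab1, H2-Eb1, Cd74, Ciita, H2-DMa and H2-DMb1, chosen by name out of 25124 genes listed for RNA-seq of whole retinas. MHC class II molecules are pairs of an alpha and a beta chain that carry peptides from engulfed proteins to the cell surface, where CD4+ T cells read them. H2-Aa and H2-Ab1 encode the alpha and beta chains of the I-A molecule, and H2-Eb1 encodes the beta chain of I-E. Cd74 encodes the invariant chain, which occupies the peptide groove until the endosome, and H2-DMa and H2-DMb1 encode the H2-DM editor that exchanges its remnant for other peptides. Ciita encodes the transactivator that switches the set on, constitutively in dendritic cells and B cells, and in macrophages and microglia after interferon-gamma. The healthy retina is known for low class II levels.

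The 12 libraries were poly(A) RNA from whole retinas of wild-type (WT) C57BL/6 mice, in 6 groups of 2. In the IOP groups the intraocular pressure of 1 eye was held at 30 mmHg for 1 h and the retina was taken on day 2, at 3 months (3mo IOP) or 18 months of age (18mo IOP). The 3mo control and 18mo control retinas came from the contralateral, untreated eyes. In the 4xIOP group, mice that were 3 months old at the start had the elevation every other week, 4 times in total, and the retina was taken on day 2 after the last, with 4xIOP control retinas from the contralateral eyes. All controls were therefore eyes of animals that had also undergone the procedure in the other eye, and no retina came from an animal without it. Repeatedly treated animals were older when their retinas were taken than at the first elevation, and no 4xIOP group was started at 18 months.

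Libraries held between 39766259 and 59455040 mapped tags, of which 44.2% to 71.5% fell in exons. The tissue label was checked against 6 rod photoreceptor markers such as Sag and Gnat1, which were over 3 reads in all 12 libraries and summed to between 4575 and 23456 FPKM (fragments per kilobase of transcript, scaled to the mapped tags of the library). Some libraries differed in ways that move with the groups. Markers of pigment epithelium or ciliary body, such as Ttr and Rpe65, summed to between 119.5 and 339 FPKM in the 3mo libraries and to between 1.01 and 8.07 in the 18mo libraries. Endothelial markers ran the other way, with 3.18 to 4.93 FPKM in 3mo and 32.8 to 44.8 in 18mo libraries. Retinal ganglion cell markers summed to between 240.3 and 539 FPKM in 3mo and between 11.1 and 37.0 in 18mo libraries, and Muller glia markers to between 394 and 528 in 3mo and between 887 and 1242 in 18mo libraries. The median FPKM of detected protein-coding transcripts under 1000 bases, divided by that of transcripts of 4000 bases or more, was 1.20 to 1.36 in the 18mo and 1.89 to 4.70 in the 3mo libraries, so that age, tissue makeup and RNA composition cannot be told apart. In the 4xIOP libraries the lens markers summed to 29.6 and 72.3 FPKM, against 2.53 and 0.32 in their controls, the rod markers to 4575 and 6877 against 9297 and 9707, the Muller glia markers to 363 and 452 against 715 and 747, and the pigment epithelium or ciliary body markers to 2.45 and 5.29 against 22.4 and 29.3, and the share of tags in exons was 44.2% to 53.7% in that series.

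Of the 7 genes, 5 lie in the class II region of chromosome 17, and short shared elements were found in the promoters of H2-Aa, H2-Eb1 and H2-DMb1. Class II promoters are known for an X box, bound by the RFX and CREB factors, and a Y box, bound by NF-Y, and CIITA docks on these factors rather than on DNA. Sequences of 250 bases before to 50 bases after the start site (RefSeq, GRCm38.p6) were searched on both strands for a Y core, TGATTGG, and for an X core, GNAAC followed after 2 or 3 bases by TGANG. The cores were written down after reading the sequences of the members, so their matches there describe the choice. The stretches around both cores are shown for the members in which both were found and for H2-Ob, a chain of the H2-O inhibitor that has the same elements, with the X core and then the Y core in capitals, on the transcribed strand.
H2-Aa, chr17:34287852-34287919, minus strand: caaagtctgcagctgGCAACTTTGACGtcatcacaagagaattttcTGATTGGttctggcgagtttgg
H2-Eb1, chr17:34305761-34305827, plus strand: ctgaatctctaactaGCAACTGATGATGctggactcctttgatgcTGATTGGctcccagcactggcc
H2-DMb1, chr17:34153082-34153149, plus strand: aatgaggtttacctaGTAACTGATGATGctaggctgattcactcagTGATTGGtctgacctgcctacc
H2-Ob, chr17:34238803-34238867, plus strand: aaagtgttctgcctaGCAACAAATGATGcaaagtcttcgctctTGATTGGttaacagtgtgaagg

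In these windows the X core began 81 to 94 bases before the start site and the Y core 50 to 63 bases before it, with 15 to 19 bases between them. Of all 32851 promoter windows, 1.81% held the X core, 7.82% the Y core, and 11 windows (0.0335%) held the X core 10 to 40 bases before the Y core. The windows of H2-DMa held neither core. The promoters of H2-DMb2, H2-Oa and H2-Eb2, which also lie in the class II region, held the Y core without the X core. Promoter sequences of H2-Ab1, Cd74 and Ciita were not used here. A match of letters is a description, and no binding was measured in these libraries.

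On mm10, the build of the tables, the 5 members of chromosome 17 are H2-DMa (34122832 to 34139101, plus strand), H2-DMb1 (34153191 to 34160229, plus strand), H2-Ab1 (34263227 to 34269418, plus strand), H2-Aa (34282744 to 34287823, minus strand) and H2-Eb1 (34305867 to 34316674, plus strand). Ciita lies on chromosome 16 and Cd74 on chromosome 18. Values are counts over the exons of 1 transcript of each gene, and for Ciita the 2 tables used transcripts of different length, 5146 and 5414 bases. H2-DMb1 and H2-DMb2 are close copies and only uniquely mapped tags were counted, so levels of H2-DMb1 are uncertain by the reads that match both.

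**Figure D1:**
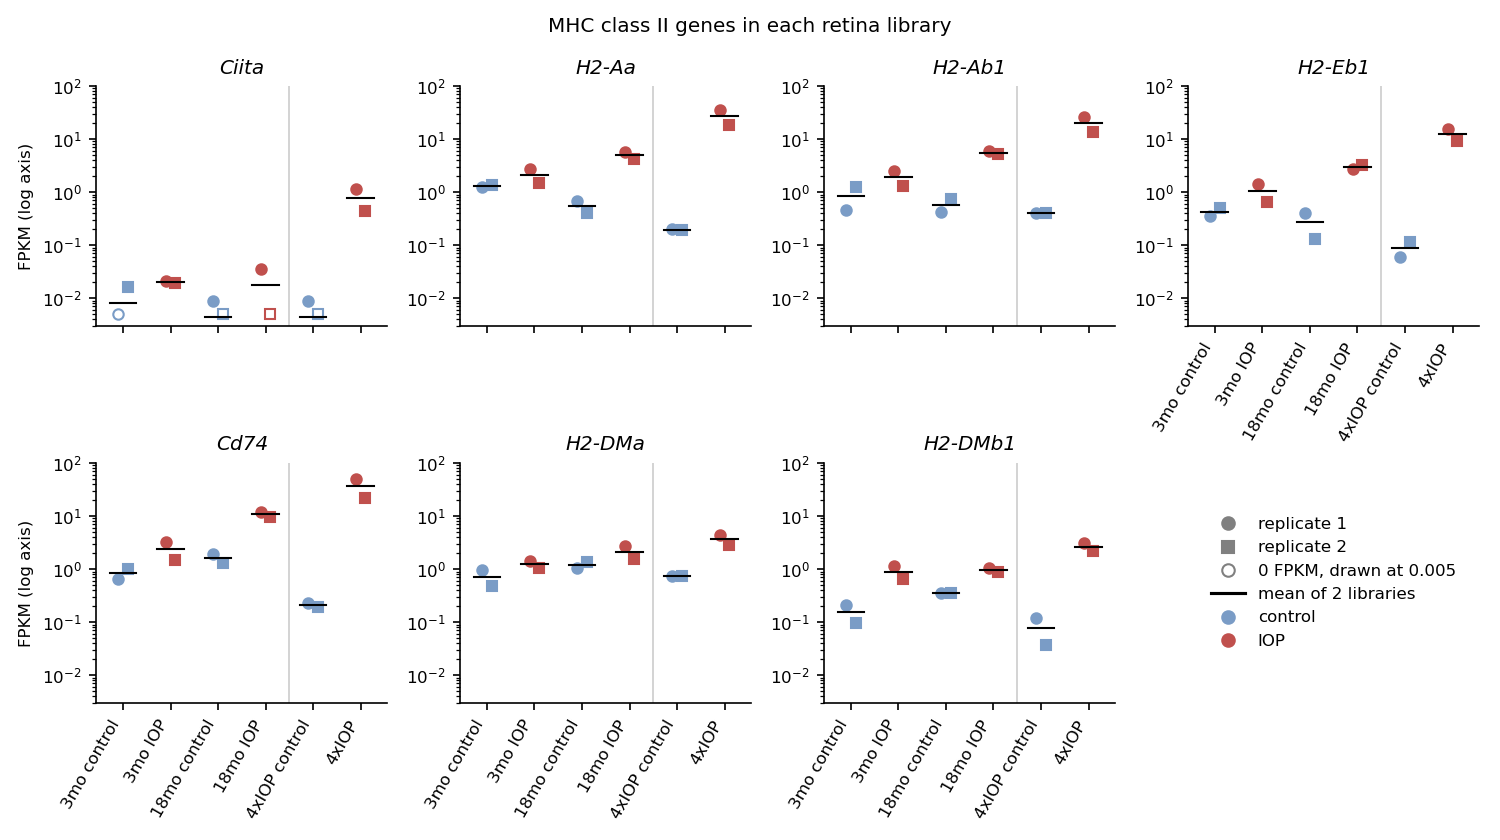
FPKM on a log axis for each of the 7 class II genes in the 12 libraries, with circles and squares for replicates 1 and 2, a line at the mean of 2 libraries, and open symbols for libraries at 0 FPKM. Control libraries are blue and IOP libraries red, and the vertical line parts the 2 tables, which were scaled separately. For H2-Aa the 4xIOP libraries sit at 36.0 and 18.7 FPKM and their controls at 0.202 and 0.190 FPKM.

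Repeated pressure, 4xIOP against 4xIOP control, asks what recurring mild stress does to a young retina, and all 6 class II genes that could be tested were higher after it. Log2 fold changes of log2(FPKM + 0.5) ran from 1.72 for H2-DMa to 5.58 for Cd74, and they were larger for the chains and the invariant chain than for the H2-DM editor. The control retinas held very little class II RNA, with the 7 genes summing to 1.77 and 1.67 FPKM (100 reads in each library), against 137.4 and 68.7 FPKM (9918 and 3743 reads) in the 4xIOP retinas. A gene was called where limma's p, adjusted over all genes by Benjamini-Hochberg, did not exceed 0.05 and the log2 fold change reached 1. By this rule 6 of 6 tested members were called higher, where 5.45% of all 13718 genes were. All but H2-DMa reached the minimum mean of 0.5 FPKM for the test only through the 4xIOP libraries in which they are high, and with no such minimum 6 of 7 were called, Ciita being tested too and not called. In whole retina, more cells that carry class II and more class II RNA per cell cannot be told apart.

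Ciita, the transactivator, had too low a mean for the test and is given by its reads. It had 2 reads and 0 reads in the 4xIOP control libraries, and 348 and 100 reads in the 4xIOP libraries (1.15 and 0.437 FPKM). The ratio of reads per tag was 186.8, with an exact 95% interval of 51.4 to 1547 that covers counting error only. In the other 8 libraries Ciita had between 0 and 10 reads, so the 4xIOP libraries stand alone in holding it at a countable level.

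The I-A chains came next in order of role. H2-Aa stood at 0.202 and 0.190 FPKM in the controls and at 36.0 and 18.7 FPKM in the 4xIOP retinas, which is a difference of 5.25 ± 0.26 on the log2 scale (SE, n = 2 and 2; limma adjusted p = 9.15e-08). Its partner H2-Ab1 stood at 0.403 and 0.399 FPKM in the controls and at 26.5 and 13.4 FPKM after repeated pressure, the difference being 4.43 ± 0.27 (limma adjusted p = 3.86e-07). In each pair of values the lower 4xIOP library was well above both controls. As ratios of mean FPKM, without the 0.5 added, the 4xIOP retinas held 139.6 times the H2-Aa and 49.8 times the H2-Ab1 of the controls.

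H2-Eb1, the I-E beta chain, stood at 0.061 and 0.114 FPKM in the controls and at 15.7 and 9.04 FPKM in the 4xIOP retinas (log2 fold change 4.40 ± 0.25, limma adjusted p = 2.10e-07). Its alpha partner does not function in C57BL/6 mice, and the pseudogene listed as H2-Ea-ps was at 0 reads in all 12 libraries, so the beta chain RNA was measured without that of an alpha partner. Cd74, the invariant chain, went from 0.228 and 0.195 to 50.6 and 22.1 FPKM, and its difference, 5.58 ± 0.30 (limma adjusted p = 1.78e-07), was the largest of the 6. For these genes too the control and 4xIOP libraries did not overlap.

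The H2-DM genes had the smallest fold changes of the 6. H2-DMb1 stood at 0.118 and 0.037 FPKM in the controls and at 3.04 and 2.15 FPKM in the 4xIOP retinas (log2 fold change 2.41 ± 0.25, limma adjusted p = 2.79e-05), and H2-DMa at 0.747 and 0.730 against 4.45 and 2.88 FPKM (1.72 ± 0.23, limma adjusted p = 2.43e-04). The ratio of mean FPKM, 4xIOP over control, was 33.5 for H2-DMb1 and 4.96 for H2-DMa, and the fitted difference of H2-DMb1 ran from 1.73 with a pseudocount of 1 to 4.95 by voom on recovered reads. H2-DMa was the member with the highest control level in this series and the smallest rise. Both libraries of all 6 tested members lay above both controls, as did 27.7% of all genes tested. In each of the 7 members the value of replicate 1 was above that of replicate 2, and the summed level of the 7 genes was 137.4 FPKM in replicate 1 and 68.7 in replicate 2. The median log2 fold change of the 6 tested members was 4.41, and that of all genes 0.10.

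**Figure D2:**
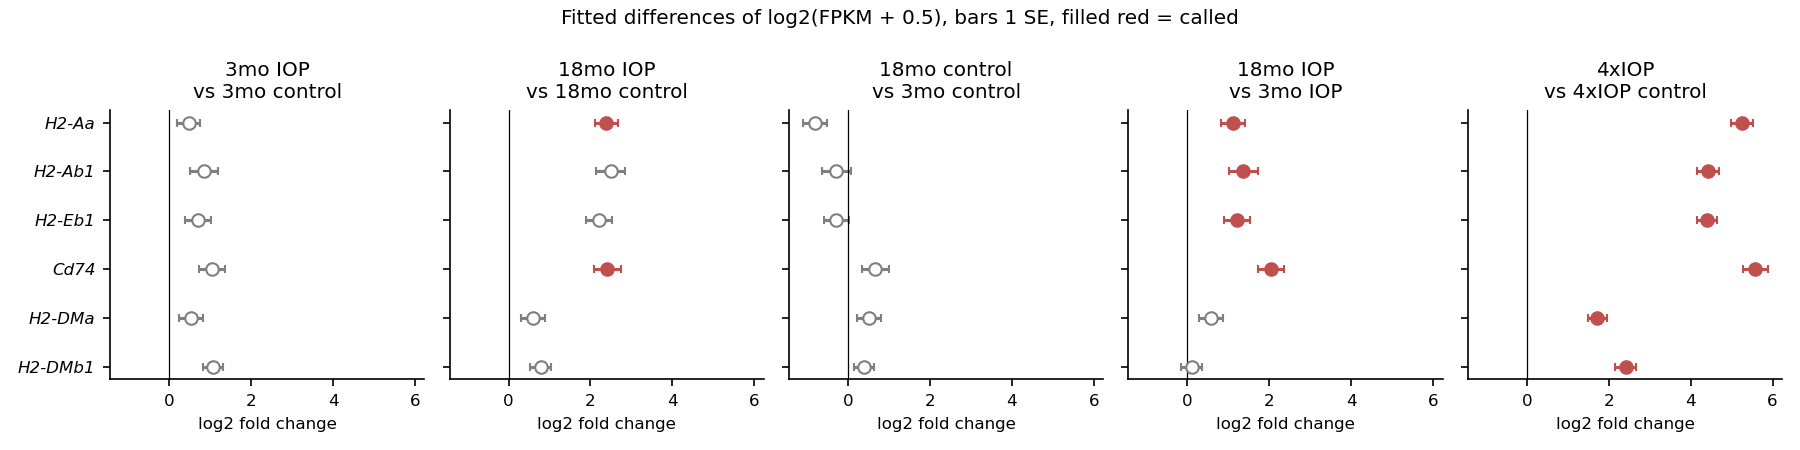
Fitted log2 fold changes of log2(FPKM + 0.5) for the 6 tested class II genes (rows) in each comparison (panels), with bars of 1 SE and n = 2 libraries per group. Filled red points passed the adjusted p and the fold threshold, which were all 6 after repeated pressure, 2 in 18mo IOP against its control and none in 3mo IOP against its control. Of all genes, 5.45%, 0.117% and 0.568% were called higher in these comparisons.

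A single elevation at 3 months, 3mo IOP against 3mo control, gave differences in the class II genes that did not pass the test. All 6 tested members had higher means in the IOP retinas, with log2 fold changes from 0.47 for H2-Aa to 1.08 for H2-DMb1. As ratios of mean FPKM, without the 0.5 added, the IOP retinas held 5.83 times the H2-DMb1 of the controls, 2.84 times the Cd74, 2.48 times the H2-Eb1, 2.24 times the H2-Ab1, 1.73 times the H2-DMa and 1.60 times the H2-Aa. None was called higher, where 0.568% of all 13731 genes were, and voom on recovered reads also called 0 of them. An unadjusted limma p under 0.05 was found for 3 of the 6 members, and for 1169 of all 13731 genes. The smallest adjusted p was 0.144, for H2-DMb1. Both IOP libraries lay above both controls for all 6, as they did for 28.6% of all genes tested.

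Of the chains, H2-Aa had 1.25 and 1.36 FPKM in the controls and 2.71 and 1.46 FPKM after pressure, and H2-Ab1 had 0.467 and 1.25 against 2.55 and 1.32. In both the second IOP library lay just above the higher control. H2-Eb1 had 0.348 and 0.504 FPKM in the controls and 1.45 and 0.665 after the elevation. Cd74 had 0.655 and 1.00 FPKM in the controls and 3.20 and 1.50 in the IOP retinas, and the difference was 1.05 ± 0.32 (limma adjusted p = 0.294).

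Of the H2-DM genes, H2-DMa had 0.949 and 0.482 FPKM in the controls against 1.43 and 1.05 after pressure, and H2-DMb1 had 0.208 and 0.098 against 1.12 and 0.658 (log2 fold change 1.08 ± 0.25, limma adjusted p = 0.144). The fitted difference of H2-DMb1 was 1.96 with a pseudocount of 0.1 and 2.35 by voom on recovered reads, and it passed in neither fit. The H2-DMb1 controls were the lowest values among the tested members in this comparison. Ciita had 0 and 4 reads in the controls and 6 and 4 reads in the IOP libraries, a ratio of mean FPKM of 2.5 that rests on these few reads. In 3mo IOP retinas replicate 1 was the higher library for each of the 7 genes, and the summed level was 12.5 FPKM in replicate 1 and 6.67 in replicate 2, against 3.87 and 4.72 in the controls. The median log2 fold change of the 6 tested members was 0.78, beside 0.13 over all genes, and it was 0.43 without 3mo IOP replicate 1 and 1.15 without 3mo IOP replicate 2.

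A single elevation at 18 months, 18mo IOP against 18mo control, went with higher levels of H2-Aa, the I-A alpha chain, and of Cd74, the invariant chain. These were the called genes, 2 of 6 tested members, where 0.117% of all genes (16 of 13731) were. H2-Ab1 and H2-Eb1 had like log2 fold changes of 2.50 and 2.21 and did not pass the test, with limma adjusted p-values of 0.0574 and 0.0572. The median log2 fold change of the 6 members was 2.30, against 0.09 over all genes. Both IOP libraries were above both controls for all 6, as for 36.5% of all genes tested.

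H2-Aa had 0.692 and 0.400 FPKM in the aged controls against 5.76 and 4.20 after pressure, and its log2 fold change was 2.39 ± 0.29 (n = 2 and 2; limma adjusted p = 0.0443). Cd74 had 1.94 and 1.30 against 11.9 and 9.55 FPKM, the difference being 2.42 ± 0.32 (limma adjusted p = 0.0487). Mean FPKM was 9.13 times the control for H2-Aa and 6.64 times the control for Cd74. Both groups were tight relative to the gap between them.

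H2-Ab1 had 0.424 and 0.739 FPKM in the controls and 5.96 and 5.17 in the 18mo IOP retinas, the largest fitted difference of the 6 (2.50 ± 0.35). H2-Eb1 had 0.412 and 0.129 against 2.74 and 3.27 FPKM (2.21 ± 0.31). The H2-DM genes were less far apart, with H2-DMa at 1.06 and 1.36 against 2.68 and 1.57 FPKM (0.59 ± 0.29) and H2-DMb1 at 0.358 and 0.352 against 1.07 and 0.883 FPKM (0.79 ± 0.25), and neither passed the test. Ciita had 2 and 0 reads in the controls and 10 and 0 reads in the IOP libraries, a ratio of 3.96 with an exact 95% counting interval of 0.844 to 37.2.

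The calls at 18 months stood close to the threshold. They were lost, with no member called, in a fit with a replicate block, with a pseudocount of 0.1, with no filter on low values, with median-of-ratios or quantile scaling, by voom on recovered reads, with the compared groups alone and without any 1 of 7 of the 8 libraries, while without 18mo IOP replicate 1 H2-Aa and H2-Eb1 were called. With a pseudocount of 1, or with the trend of each library with transcript length removed, 4 were called, without a mean-variance trend 3 were, and in the alternatives that kept all libraries the log2 fold change of H2-Aa stayed between 1.95 and 3.09.

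Between the control retinas, 18mo control against 3mo control, the class II genes did not move one way. None was called, where 11.6% of all genes were called higher. The chains had lower means at 18 months, with log2 fold changes of -0.80 ± 0.29 for H2-Aa (limma adjusted p = 0.0513), -0.28 ± 0.35 for H2-Ab1 and -0.28 ± 0.31 for H2-Eb1, while Cd74 (0.67 ± 0.32), H2-DMa (0.52 ± 0.29) and H2-DMb1 (0.39 ± 0.25) had higher means. Only H2-Aa had both aged libraries below both young ones, and 3 of 6 had both above, as 45.7% of all genes did. The unadjusted limma p was under 0.05 for 1 of 6, H2-Aa, where it was for 7568 of all 13731 genes tested. Voom on recovered reads called 0 members.

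The median log2 fold change of the 6 members between control retinas was 0.06, and 0.10 below that of all genes (0.16). Removing the length trend turned the sign of H2-Ab1 to 0.34 and called Cd74 higher at 1.27, and a pseudocount of 0.1 called H2-Aa lower at -1.16. The difference of H2-Aa was -0.12 (limma adjusted p = 0.757) with the length trend removed, against -0.80, so that both its size and the directions here depend on the scale. In FPKM, a per-length scale, the invariant chain ran at 0.318 and 0.321 times the summed level of H2-Aa, H2-Ab1 and H2-Eb1 in the 3mo controls and at 1.27 and 1.03 in the 18mo controls. After pressure the same quotient was 0.477 and 0.438 in 3mo IOP, 0.826 and 0.756 in 18mo IOP, and 0.647 and 0.538 in 4xIOP retinas, whose controls had 0.342 and 0.277. The 18mo controls were thus the libraries with the most Cd74 RNA per chain RNA.

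Between the retinas that had the same elevation, 18mo IOP against 3mo IOP, the chains and Cd74 were higher at 18 months. Cd74 (2.04 ± 0.32, limma adjusted p = 0.00562), H2-Ab1 (1.36 ± 0.35, adjusted p = 0.0192), H2-Eb1 (1.21 ± 0.31, adjusted p = 0.0184) and H2-Aa (1.12 ± 0.29, adjusted p = 0.0191) were called, 4 of 6, where 10.2% of all genes were called higher. H2-DMa (0.57 ± 0.29) and H2-DMb1 (0.10 ± 0.25) did not pass. Both aged libraries were above both young ones for 5 of 6, as for 43.2% of all genes. In the same comparison Ptprc, which encodes CD45, was called higher (1.07 ± 0.27, limma adjusted p = 0.0183), having reached the minimum mean through the 18mo libraries. So were Csf1r and Cx3cr1, 2 of 7 tested microglia markers. Cbr2 and Plac8, of the border macrophage and the monocyte or neutrophil list, were called lower and were tested through their 3mo levels. The part of these cells was not tested. Cd74 alone was called without 3mo IOP replicate 2, the lower of the young IOP libraries, and 2 were called without either 18mo IOP library or with a pseudocount of 1, and 3 with quantile scaling, where H2-Aa was lost.

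The difference between the pressure responses at the 2 ages was tested by the interaction of IOP and age. It was 1.92 ± 0.41 for H2-Aa, 1.65 ± 0.50 for H2-Ab1, 1.50 ± 0.44 for H2-Eb1 and 1.37 ± 0.45 for Cd74, each a larger difference at 18 months. For H2-DMa it was 0.05 ± 0.42, and for H2-DMb1 it was -0.29 ± 0.35. None of these passed the adjustment over 13731 genes (limma adjusted p = 0.999916 for all 6), and nor did any other gene (0%), although 218 genes and 4 of the 6 members had an unadjusted p under 0.05. H2-Aa stood at rank 8 of all genes in this test when ordered by p. Voom on recovered reads also called 0, and with no filter on low values 2 genes were called, neither of them a member.

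In order of mean level within the single-elevation table, H2-Aa went from 18mo control (0.546 ± 0.206 FPKM, SD, n = 2) to 3mo control (1.30 ± 0.083), 3mo IOP (2.08 ± 0.886) and 18mo IOP (4.98 ± 1.11), with no overlap between neighbours. H2-Ab1 and H2-Eb1 had the same order, but their 18mo control and 3mo control libraries overlapped. Cd74 went from 3mo control (0.828 ± 0.245) to 18mo control (1.62 ± 0.448), 3mo IOP (2.35 ± 1.20) and 18mo IOP (10.8 ± 1.69), and 18mo control and 3mo IOP overlapped. Set beside these, in a table scaled on its own, 4xIOP retinas had 27.4 ± 12.2 FPKM of H2-Aa and 36.4 ± 20.1 of Cd74, and their controls had 0.196 and 0.212 FPKM. No test was made across the 2 tables.

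**Figure D3:**
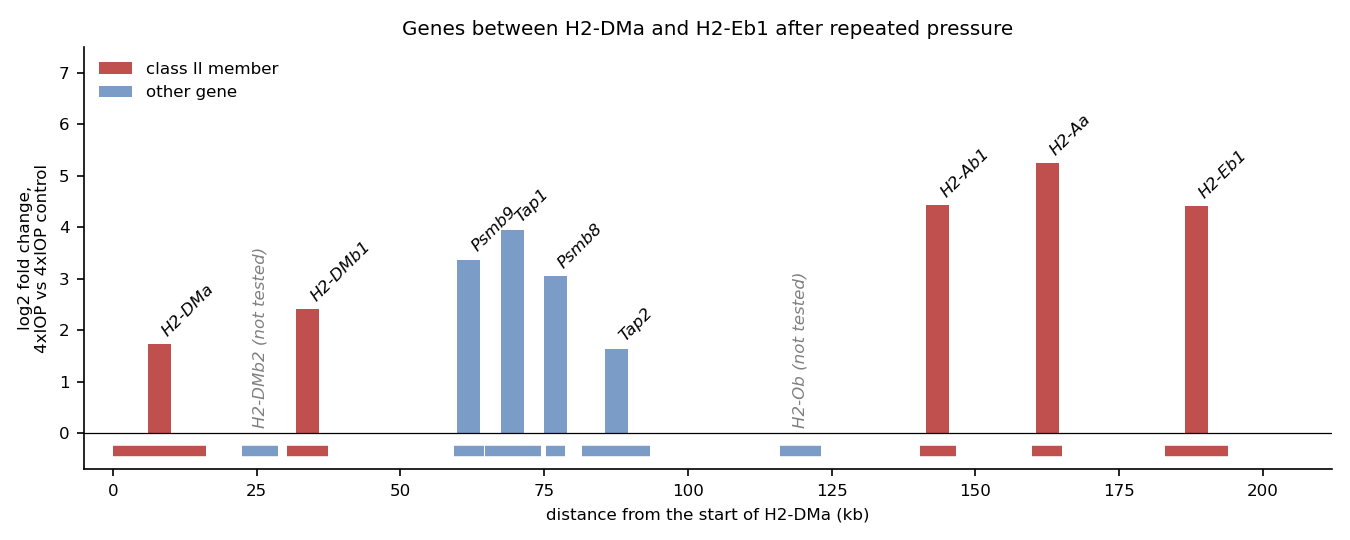
Log2 fold change, 4xIOP against 4xIOP control, of the genes that lie between the start of H2-DMa and the end of H2-Eb1, against distance in kb from the start of H2-DMa, with gene extents drawn under the bars. Red marks the 5 class II members, blue the other genes, and grey names were too low to test. All 9 tested genes of the interval were called higher, beside 5.45% of all genes, from 1.64 for Tap2 to 5.25 for H2-Aa. Of these, H2-Aa, H2-Ab1, H2-Eb1 and H2-DMb1 reached the minimum mean for the test only through the 4xIOP libraries.

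Along chromosome 17, the interval from H2-DMa to H2-Eb1 spans 193.8 kb and holds 11 genes of the tables. Between the members lie Psmb9 and Psmb8, subunits of the immunoproteasome, and Tap1 and Tap2, which carry peptides into the endoplasmic reticulum for class I molecules. All 9 genes of the interval that were tested were called higher after repeated pressure, where 5.45% of all genes were, and 5 of them are members. H2-Aa, H2-Ab1, H2-Eb1 and H2-DMb1 reached the minimum mean only through the 4xIOP libraries, so their calls are in part set by the filter. Tap1 went from 0.454 and 0.828 to 23.8 and 11.8 FPKM (log2 fold change 3.94), and Psmb8 from 1.10 and 1.77 to 18.1 and 12.9 FPKM (3.05). The other 2, H2-DMb2 and H2-Ob, were too low to test, with H2-DMb2 at 0.036 and 0.034 FPKM in the controls and 0.393 and 0.287 in the 4xIOP retinas and H2-Ob between 0 and 0.147 in these 4 libraries. Both were singled out, after their values were seen, for their place and their sequence.

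The remaining class II chains and chaperones stayed near the limit of measurement in all libraries. The 5 listed, H2-Ea-ps, H2-Eb2, H2-DMb2, H2-Oa and H2-Ob, summed to between 0.046 and 1.06 FPKM, and none had a mean of 0.5 FPKM that would allow a test. The H2-O inhibitor of H2-DM, made of the H2-Oa and H2-Ob chains, is known from B cells.

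Peptide loading and turnover take class II from a fresh chain to a loaded molecule. Of 7 such genes 2 were called higher after repeated pressure, where 5.45% of all genes were, and 5 had both 4xIOP libraries above both controls, as did 27.7% of all genes. The called genes were Ctss, the cathepsin that trims the invariant chain, and Ifi30, a thiol reductase of the endosome. Ctss went from 4.80 and 3.89 to 70.6 and 56.0 FPKM (3.71 ± 0.25, limma adjusted p = 7.25e-07), and Ifi30 from 1.94 and 3.06 to 12.9 and 13.3 FPKM (2.21 ± 0.22, adjusted p = 2.39e-05). None of the 7 was called in 3mo IOP or 18mo IOP against its control, where 0.568% and 0.117% of all genes were called higher. Ctss was called higher in 18mo control than in 3mo control (1.53 ± 0.44, limma adjusted p = 0.0239), where 11.6% of all genes were. The median over the list was 0.51 after repeated pressure, 0.36 in the 18mo and 0.12 in the 3mo comparison.

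The 7 genes of the X and Y box factors (Rfx5, Rfxap, Rfxank, Nfya, Nfyb, Nfyc and Creb1) summed to between 39.7 and 68.5 FPKM in every library. None was called in any comparison. Of all genes, between 0.117% (18mo IOP against its control) and 11.6% (18mo control against 3mo control) were called higher. The median log2 fold change of the 7 was 0.01 after repeated pressure, 0.12 at 18 months and 0.04 at 3 months. In 18mo control against 3mo control the median was 0.44, and adjusted limma p-values under 0.05 with log2 fold changes under 1 in size were found for Rfx5 (0.80), Rfxap (0.56) and Rfxank (0.53), which were higher at 18 months, and for Nfyb (-0.89) and Nfyc (-0.45), which were lower. By the adjusted p alone, with no fold threshold, 6297 of all 13731 genes passed in that comparison. RNA of these genes was measured in all control retinas, in which Ciita had at most 4 reads. Whole-retina RNA does not say which cells held it, and a part of these factors or of Ciita in the class II levels was not tested.

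Interferon-gamma is known to induce Ciita, with IRF1 as a mediator. Ifng itself was at 0 in 11 of the 12 libraries and at 0.059 FPKM in 4xIOP replicate 1. Irf1 was called higher after repeated pressure, going from 1.48 and 1.87 to 16.8 and 8.70 FPKM (2.54 ± 0.27, limma adjusted p = 3.34e-05). The receptor and kinase genes Ifngr1, Ifngr2, Jak1 and Jak2 were not called in any comparison, where 0.117% to 11.6% of all genes were called higher. In the single-elevation table Irf1 had log2 fold changes of 1.52 (limma adjusted p = 0.0531) at 3 months and 1.31 (adjusted p = 0.115) at 18 months. Unlike those of the chains, the value was larger at 3 months, and the interaction of -0.21 ± 0.36 did not pass the limma test.

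**Figure D4:**
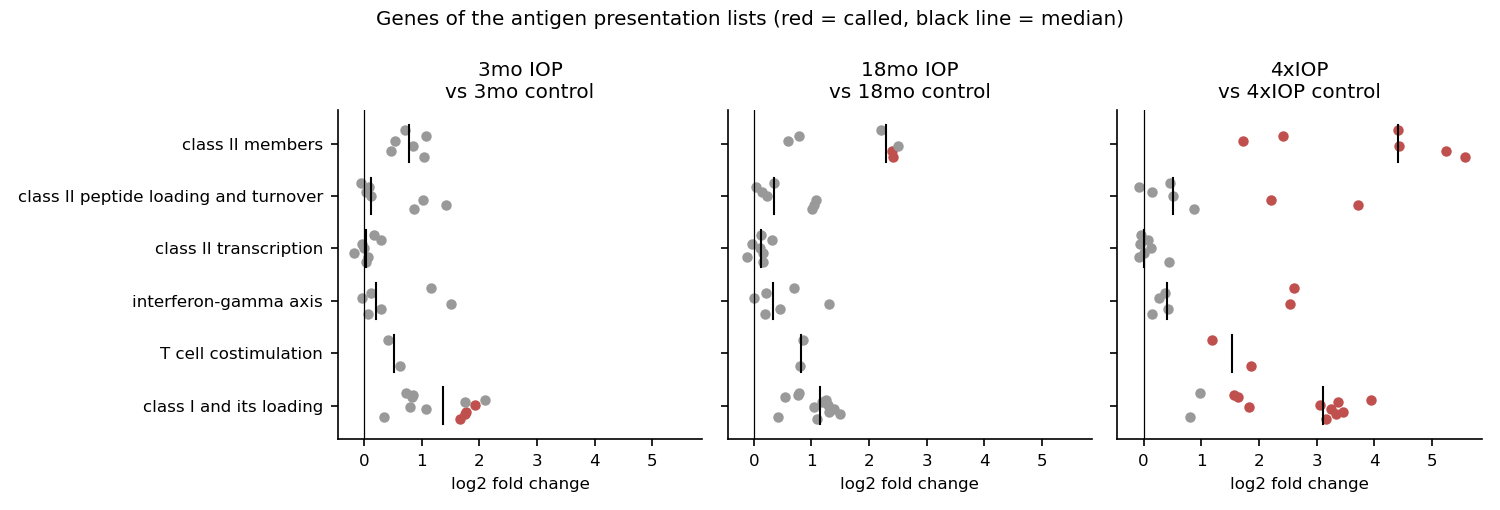
Log2 fold changes of the tested genes of 6 lists of antigen presentation genes in the 3 pressure comparisons, with red for called genes and a black line at each list's median. The class I list has 4, 0 and 10 of 12 genes called at 3 months, at 18 months and after repeated pressure, and the class II members 0, 2 and 6 of 6. Of all genes, 0.568%, 0.117% and 5.45% were called higher. After repeated pressure Nlrc5 and all class II members but H2-DMa reached the minimum mean only through the 4xIOP libraries.

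Class I and its loading genes, which present peptides from within the cell, were called in part after the single elevation at 3 months. In 3mo IOP against 3mo control 4 of 12 were called higher, H2-K1, H2-D1, B2m and Psmb8, where 0.568% of all genes were, with H2-K1 going from 10.1 and 13.9 to 51.1 and 33.6 FPKM (1.77 ± 0.26, limma adjusted p = 0.0325). No gene at all was called in that comparison without 3mo control replicate 1 or without 3mo IOP replicate 1. In 18mo IOP against 18mo control 0 of 12 were called (0.117% of all genes), although both IOP libraries lay above both controls for all 12, as for 36.5% of all genes tested. H2-K1 and H2-D1 were higher in 18mo control than in 3mo control retinas (1.70 and 1.74, adjusted p = 0.00543 and 0.00569). After repeated pressure 10 of 12 were called higher, beside 5.45% of all genes. The list's median log2 fold change was 1.38 at 3 months, 1.14 at 18 months and 3.11 after repeated pressure, where the class II members had 0.78, 2.30 and 4.41. Nlrc5, the class I counterpart of Ciita, had 0.049 and 0.024 FPKM in the 3mo controls and 0.745 and 0.533 after pressure, 0.119 and 0.248 in the 18mo controls and 0.623 and 2.33 after pressure, and 0.047 and 0.140 in the 4xIOP controls and 8.59 and 2.95 FPKM after pressure, and was called in the last pair, where it was tested through its 4xIOP levels (3.24 ± 0.35, limma adjusted p = 4.23e-05).

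A T cell that meets class II also needs costimulation, and of 6 such ligand genes 2 had levels high enough to test in each table. Cd274, which encodes the inhibitory ligand PD-L1, and Icosl, the ligand of ICOS, were both called higher after repeated pressure, where 5.45% of all genes were and where both reached the minimum mean only through the 4xIOP libraries, Cd274 from 0.159 and 0.404 to 4.54 and 1.07 FPKM (1.87 ± 0.41, limma adjusted p = 0.0117) and Icosl from 0.202 and 0.147 to 1.24 and 0.864 FPKM (1.19 ± 0.26, adjusted p = 0.0117). No gene of this list was called in the other comparisons, where 0.117% to 11.6% of all genes were called higher. The summed level of the 6 was between 0.479 and 8.12 FPKM.

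**Figure D5:**
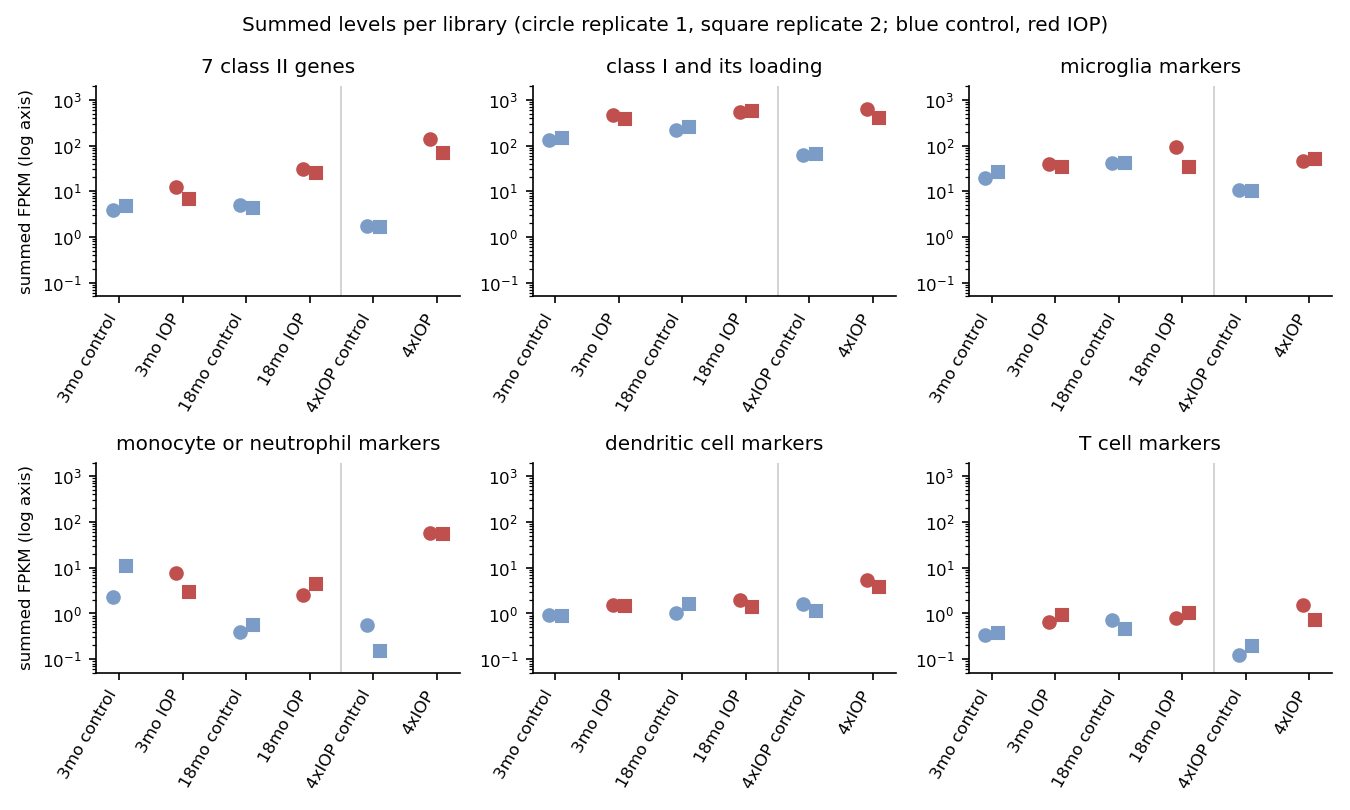
Summed FPKM per library, on a log axis, of the 7 class II genes, the class I list and 4 marker lists, with circles for replicate 1 and squares for replicate 2. In 18mo IOP the class II sums lie at 30.2 and 24.6 FPKM while the microglia sums lie at 94.2 and 34.5 FPKM.

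Markers of cells that can carry class II were measured in the same libraries. The 7 monocyte or neutrophil markers summed to 0.561 and 0.154 FPKM in 4xIOP control and to 57.0 and 53.4 in 4xIOP retinas. The 6 of them that were tested reached the minimum mean only through the 4xIOP libraries, so that their calls are in part set by the filter and no count is drawn from them. Of 6 tested microglia markers 5 were called higher, where 5.45% of all genes were, among them Aif1, Csf1r, Cx3cr1 and Tmem119, with sums of 10.6 and 10.1 against 46.1 and 50.7 FPKM, as were F13a1 and Pf4 of the border macrophage list, whose sums were 3.06 and 2.02 against 13.2 and 7.91. P2ry12 was the tested microglia marker not called (0.534 and 0.541 against 0.869 and 1.215 FPKM). Siglech, too low to test, had 0.467 and 0.229 against 0.201 and 0.554. Lyve1, of the border macrophage list, was not called (2.68 and 1.71 against 1.97 and 2.86). Ptprc, the common leukocyte antigen CD45, went from 0.044 and 0.041 to 4.34 and 2.96 FPKM (2.92 ± 0.24, limma adjusted p = 5.13e-06). Aif1, Tmem119, F13a1, Pf4 and Ptprc also had control means under 0.5 FPKM and were tested through their 4xIOP levels. The part of these cells in the class II result was not tested.

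The 9 dendritic cell markers summed to 1.60 and 1.15 in 4xIOP control and 5.51 and 3.76 FPKM in 4xIOP retinas, with 3 and 2 of them over 3 reads in the controls and 9 and 6 after repeated pressure. Itgax, which encodes CD11c, was called higher, from 0 and 0.018 to 0.937 and 1.11 FPKM (1.58 ± 0.27, limma adjusted p = 0.00187), having reached the minimum mean only through the 4xIOP libraries, and Flt3 was not (0.485 and 0.358 against 0.765 and 0.782, adjusted p = 0.444). In the 4xIOP retinas Clec10a had 0.935 and 0.446 FPKM (0.203 and 0.048 in the controls), Ccr7 had 1.24 and 0.072 (0 in both controls), Clec9a had 0.091 and 0.024, and Xcr1 had 0.016 and 0.011. The 6 T cell markers summed to 0.126 and 0.199 FPKM in the controls and to 1.56 and 0.712 after repeated pressure, and the 5 B cell markers to 0.167 and 0.137 against 0.309 and 0.403. The part of dendritic, T and B cells in the class II result was not tested.

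Several of these lists were also read in the retinas with a single elevation. The 8 microglia markers summed to 40.9 and 42.4 FPKM in 18mo control and to 94.2 and 34.5 in 18mo IOP replicates 1 and 2. None of the 7 tested was called in that comparison, where 0.117% of all genes were called higher. P2ry12 was at 6.96 in 18mo IOP replicate 1 and 1.46 in replicate 2. In replicate 2, where the microglia sum was below both controls, the 7 class II genes summed to 24.6 FPKM against 4.90 and 4.28 in the controls. Replicate 1, with the higher microglia sum, also had the higher class II sum, 30.2 FPKM. Aif1 went from 1.28 and 1.71 to 3.55 and 2.14 FPKM, and Ptprc from 0.461 and 0.664 to 1.62 and 0.856 FPKM. Of 3 tested monocyte or neutrophil markers none was called, and the sums of that list were 0.386 and 0.569 in 18mo control and 2.58 and 4.39 FPKM in 18mo IOP. The border macrophage sums were 3.36 and 4.39 in 18mo control and 7.08 and 3.79 FPKM in 18mo IOP, and the dendritic cell sums 1.04 and 1.64 against 1.96 and 1.36 FPKM. Among genes of these lists that were too low to test, Mrc1 went from 0.086 and 0.049 to 0.499 and 0.372 FPKM, F13a1 from 0.065 and 0 to 0.261 and 0.346, and Itgax from 0.091 and 0.133 to 0.676 and 0.411, each higher in both 18mo IOP libraries than in both controls. Other genes of the lists did not share this, with Zbtb46 at 0.625 and 0.734 against 0.462 and 0.494 FPKM, Flt3 at 0.289 and 0.394 against 0.416 and 0.199, and Lyve1, the most abundant of the border macrophage list, at 3.11 and 4.23 against 5.07 and 1.36. At 3 months the same genes had 0.091 and 0.071 against 0.400 and 0.436 FPKM (Mrc1), 0.151 and 0.115 against 0.633 and 0.338 (F13a1), and 0.036 and 0.021 against 0.133 and 0.072 (Itgax), while Lyve1 had 2.74 and 3.58 against 2.83 and 1.85. At 3 months the microglia sums were 19.3 and 26.2 in the controls and 38.7 and 33.5 in the IOP retinas, and the monocyte or neutrophil sums were 2.24 and 11.0 against 7.71 and 2.91 FPKM. The part of these cell types was not tested.

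The genes most like the class II chains and Cd74 in their pattern were picked by Pearson r over the 12 libraries, after log2(FPKM + 0.5) was centred in each table, among 13053 genes that are not members. Among the 10 were Lcp1 (0.96), H2-M3, Tgfbi, Il2rg, Cd84, Ctsc, Arl5c, Lyz2 and Casp8 (0.95). Lcp1 encodes an actin bundling protein of leukocytes, H2-M3 a class I molecule for formylated peptides, Lyz2 a lysozyme and Ctsc cathepsin C. These points share the same libraries, and the contrast of 4xIOP with its controls carries much of the range. None of the 10 was called in 3mo IOP or 18mo IOP against its control, where 0.568% and 0.117% of all genes were called higher. Their log2 fold changes ran from 0.03 (Il2rg) to 2.66 (Lyz2) at 3 months and from 0.49 (Casp8) to 2.65 (Lyz2) at 18 months. By Spearman rank correlation 4 of the 10 were again among the first 10, and over the 8 single-elevation libraries alone 1 was.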

How the data were processed

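Poly(A) RNA of 12 retina libraries was analysed from 2 tables, 1 for the single elevations and 1 for the repeated ones. The FPKM values were made and deposited by the authors, who aligned reads to mm10 with STAR 2.7.8a and counted uniquely mapped tags on the transcribed strand in exons of 1 isoform per locus with HOMER. Replicates were not pooled. Mapped tags per library were recovered from FPKM times transcript length, which gave whole reads (within 0.15 read) for 100% of the values checked, and a ratio over a group with 1 to 3 reads is given with its exact counting interval. Replicates of every group differed by more than sampling noise (chi-square per gene 19.8 to 174.4). The study calls its libraries biological replicates, but the labels do not say which control and IOP libraries share an animal, and p-values measure the spread between these libraries.

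Genes whose mean in a table reached 0.5 FPKM (13731 and 13718) were tested as log2(FPKM + 0.5) with limma 3.58.1 and a mean-variance trend (R 4.3.3), the 8 single-elevation libraries as 4 groups and the other 4 alone. Fold changes on this scale understate those of low genes. Calls needed a p of no more than 0.05 after Benjamini-Hochberg adjustment over all genes, with a log2 difference of 1 or more in size (for the interaction, the adjusted p alone). The members, gene lists, named genes and alternatives were chosen with earlier results of these data known. Named genes are the 7 members, called genes of the lists with 8 fixed genes beside them, and the 10 genes most alike to the chains and Cd74, besides a few list genes singled out by role after their values were seen. Lists are described by counts and medians and were not tested. Some genes of the lists and of the most alike genes are not reported here. Steps were tested on simulated data. Alternatives were pseudocounts of 0.1 and 1, no filter or a minimum mean of 2 FPKM, scaling by median of ratios or by quantiles, no trend, a replicate block, only the compared groups, the adjusted p alone, removal of the trend with transcript length, voom on recovered reads, and each library left out. Same-numbered control and IOP libraries did not deviate together (r = -0.28, -0.53 and -0.29 over genes for the 3mo, 18mo and repeated pairs). This cannot decide whether they share an animal, since single libraries also differed in tissue makeup and transcript length. Pairing stays unknown, the main fits did not use the numbers as pairs, and a crossed block was added after seeing the data.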

Additional observations from a re-analysis of the deposited data

Results flagged for a closer look

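H2-Aa stood out because its difference with age turned with pressure. Both 18mo control libraries (0.692 and 0.400 FPKM) lay below both 3mo control libraries (1.25 and 1.36 FPKM), while both 18mo IOP libraries (5.76 and 4.20 FPKM) lay above both 3mo IOP libraries (2.71 and 1.46 FPKM). The interaction of IOP and age was 1.92 on the log2 scale, and it did not pass the limma test over all genes (adjusted p = 0.999916). With the trend of each library with transcript length removed, the difference of H2-Aa between the control ages was -0.12 in place of -0.80.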

How the results depend on the processing

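After repeated pressure the 6 tested members were called under every alternative and without any library, except that with a mean of at least 2 FPKM H2-DMb1 was too low to test (5 of 5 called) and with no filter Ciita was tested too and not called (6 of 7), and in 3mo IOP against its control none was called under any. For 18mo IOP against its control the number called higher (2) was 0 with a pseudocount of 0.1, no filter, a minimum mean of 2 FPKM, median-of-ratios or quantile scaling, only the compared groups, voom on recovered reads and the replicate block, 3 without a mean-variance trend (H2-Eb1 added), and 4 with a pseudocount of 1 or the length trend removed. Leaving out 1 library gave 0 to 2 there. For 18mo IOP against 3mo IOP it was 2 in place of 4 with a pseudocount of 1, 3 with quantile scaling, where H2-Aa was lost, 3 of 3 tested with the minimum mean of 2 FPKM, and 1 to 4 when a library was left out. In 18mo control against 3mo control 1 was called higher, Cd74, with the length trend removed and 1 lower, H2-Aa, with a pseudocount of 0.1, against 0 and 0. The replicate block changed no other call of a member, and with the numbers crossed the 18mo count was also 0 while the counts of the other comparisons were the same. Some fold changes that passed no test turned sign. For H2-Ab1 between controls, -0.28 became 0.34 with the length trend removed and 0.15 without 3mo control replicate 2, the fits without a library running from -0.71 to 0.15. For H2-DMb1 between IOP groups, 0.10 became -0.14 without 3mo IOP replicate 2, in a range up to 0.35. The H2-DMa interaction of 0.05 became -0.036 with a pseudocount of 0.1 and -0.037 with voom, and ran from -0.25 to 0.36 in the fits without a library, being negative without 3mo control replicate 1, 3mo IOP replicate 2, 18mo control replicate 1 or 18mo IOP replicate 1. The cause was not tested. Over all genes and with all libraries kept, higher calls numbered 3 (voom) to 119 (length trend removed) against 78 in 3mo IOP, 0 to 39 against 16 in 18mo IOP, and 405 (mean of at least 2 FPKM) to 939 (adjusted p alone, with no fold threshold) against 748 in 4xIOP. Without 1 library the 3mo IOP count was 0 (3mo control replicate 1 or 3mo IOP replicate 1 left out), 7 (3mo IOP replicate 2), 17 or 19 (18mo control replicate 1 or 2), 124 (either 18mo IOP library) or 253 (3mo control replicate 2). The 18mo IOP count was 140 without 18mo IOP replicate 1, 6 without replicate 2 and 0 without any of the other 6 libraries. With quantile scaling the 4xIOP split went from 748 higher and 95 lower to 500 and 142, and that of 18mo IOP from 16 and 1 to 3 and 1, and with median-of-ratios scaling that of the age comparison between controls from 1595 and 1590 to 1056 and 1959. Median-of-ratios scaling takes out the shift of the median gene, 0.16 between control ages and 0.13 in 3mo IOP. Depth limits Ciita, which had 10 reads or fewer in 10 of 12 libraries.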
